A study of Mus musculus with 23 samples.

Results

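The inflammatory CC chemokines examined here are 10 genes, Ccl2, Ccl3, Ccl4, Ccl5, Ccl6, Ccl7, Ccl8, Ccl9, Ccl11 and Ccl24, which were matched by symbol among the 35322 genes measured by RNA-Seq in the lungs of 23 female BALB/c offspring aged 13 weeks. Sham offspring (7 libraries) were born to dams given saline by the nose, and PM offspring (7 libraries) to dams given fine particulate matter (PM2.5) before mating and through gestation and lactation, and both were sham challenged with PBS (saline in the methods). Sham-OVA (5 libraries) and PM-OVA (4 libraries) offspring of the same kinds of dam were sensitised to ovalbumin (OVA) with alum and challenged with OVA aerosol, which induces allergic airway disease (AAD). The comparisons ask how the chemokines respond to OVA in each cohort and whether maternal exposure alters their level or that response. The labels name the tissue as lung (RML) and give neither the dam nor a batch for any library, so p-values measure the spread between these libraries. All 10 genes were among the 16795 that passed a filter on low values, and were tested.

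CC chemokines are small secreted proteins that guide leukocytes along gradients by binding G protein-coupled receptors on their surface. In allergic lungs, Ccl11 and Ccl24 (eotaxins) bind Ccr3 on eosinophils, and Ccl2 and Ccl7 bind Ccr2 on monocytes. Ccl3, Ccl4 and Ccl5 attract T cells and macrophages, Ccl6 and Ccl9 bind Ccr1, and mouse Ccl8 binds Ccr8, which T helper 2 cells carry.

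Values are RPM, reads scaled to the library total without a correction for gene length. The saline libraries held 13089691 to 17393579 reads on genes and the OVA libraries 2298645 to 12355561, so depth and OVA challenge cannot be told apart. One read was worth 0.0502 to 0.0688 RPM in saline libraries but 0.311 RPM in Sham-OVA replicate 3, 0.133 in PM-OVA replicate 3 and 0.182 in PM-OVA replicate 4. The median gene was 0.48 lower (log2) in Sham-OVA than Sham and 0.43 lower in PM-OVA than PM. Sham replicate 1 went against its label as female, with 0.289 RPM of Xist against at least 174 in the other 22 libraries, and 123 RPM of the Y-linked Ddx3y against at most 0.132. Of the 6 lung genes checked, the sum was at least 23623 RPM in every library. The tissue is bulk lung, so fewer cells of a type and less RNA per cell cannot be told apart.

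After OVA challenge 8 of the 10 chemokines were higher in each cohort at an adjusted p under 0.05, where the share of all genes tested was 20.6% (Sham offspring) and 20.1% (PM offspring). The 8 were Ccl2, Ccl4, Ccl6, Ccl7, Ccl8, Ccl9, Ccl11 and Ccl24 in both. None fell. The median of the 10 log2 differences was 3.46 in Sham offspring and 2.24 in PM offspring. At the stricter threshold for a differentially expressed gene (DEG), an adjusted p under 0.000001 with an absolute log2 difference above 1, 5 of 10 were called in Sham offspring and 3 of 10 in PM offspring, all higher, where 1.98% and 0.262% of all genes tested were called higher. Ccl8, Ccl9 and Ccl11 were DEGs in both cohorts, and Ccl2 and Ccl24 in Sham offspring. Calls near this threshold were close: Ccl2 passed in Sham offspring with an adjusted p of 9.1e-07, and Ccl24 missed in PM offspring with 1.01e-06. Without Sham replicate 1, Ccl2 had an adjusted p of 4.64e-06, 4 chemokines were DEGs, and 8 still passed at 0.05. Of all 16795 genes tested, 3259 were then higher at 0.05. In each cohort 7 of 10 had their lowest OVA value above their highest saline value, against 13.2% and 13.3% of all genes tested.

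**Figure D1:**
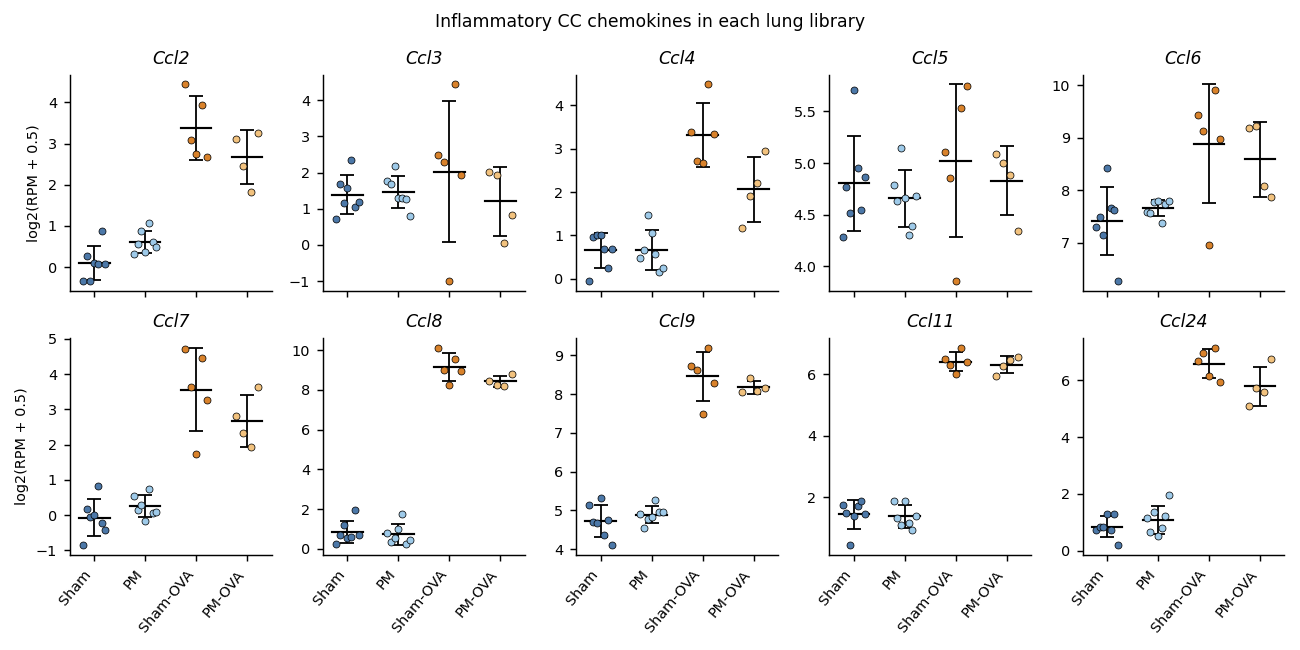
Level of each chemokine as log2(RPM + 0.5) in the 4 groups on the x axis; each point is 1 library, the long line is the mean and the error bar is 1 SD (7 Sham, 7 PM, 5 Sham-OVA, 4 PM-OVA). The y axes differ between panels, and the Ccl3 and Ccl5 panels show OVA libraries among the saline ones.

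The chemokines fell into 2 blocks of chromosome 11 and a separate site on chromosome 5 (GRCm38). Ccl2, Ccl7, Ccl11 and Ccl8 lay in that order, with Ccl12 and Ccl1, within 270.12 kb (chr11:82035571-82305690), all 4 on the forward strand. Ccl5, Ccl9, Ccl6, Ccl3 and Ccl4 lay within 138.91 kb (chr11:83525778-83664683). Ccl24 was at chr5:135569937-135573049 on the reverse strand. The first block held Ccl8 and Ccl11, with large rises. The second held the 2 chemokines that did not pass the test, Ccl3 and Ccl5, but also Ccl4, Ccl6 and Ccl9, which rose in both cohorts. No 100-base window of any of the 10 transcripts was shared with another gene. Ccl6 overlaps the forward-strand transcript E230016K23Rik, with 0 exon bases in common, which had a median of 0.301 RPM in Sham and 2.64 in Sham-OVA against 178 and 557 for Ccl6. Whether counting used strand is not given in the sources used here.

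RefSeq promoters (GRCm38.p6) were at hand for 4 of the 10, and the 250 bases before the start are shown because these genes span the range of response: Ccl8 rose most, Ccl9 and Ccl6 rose, and Ccl3 did not pass the test. Capitals mark TATA box letters (TATAAA) and the kappa-B consensus, each searched on both strands. The windows are chr11:82114935-82115184 (forward) for Ccl8, and on the reverse strand chr11:83578637-83578886 for Ccl9, chr11:83593088-83593337 for Ccl6 and chr11:83649379-83649628 for Ccl3.
Ccl8: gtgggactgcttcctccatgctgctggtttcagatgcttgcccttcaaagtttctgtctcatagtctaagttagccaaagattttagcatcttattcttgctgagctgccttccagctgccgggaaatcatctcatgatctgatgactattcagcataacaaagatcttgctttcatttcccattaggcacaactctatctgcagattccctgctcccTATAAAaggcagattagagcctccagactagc
Ccl9: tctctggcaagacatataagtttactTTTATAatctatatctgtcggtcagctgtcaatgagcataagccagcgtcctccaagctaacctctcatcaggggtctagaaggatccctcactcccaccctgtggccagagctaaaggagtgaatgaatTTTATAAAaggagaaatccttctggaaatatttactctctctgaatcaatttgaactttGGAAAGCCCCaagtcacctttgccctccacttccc
Ccl6: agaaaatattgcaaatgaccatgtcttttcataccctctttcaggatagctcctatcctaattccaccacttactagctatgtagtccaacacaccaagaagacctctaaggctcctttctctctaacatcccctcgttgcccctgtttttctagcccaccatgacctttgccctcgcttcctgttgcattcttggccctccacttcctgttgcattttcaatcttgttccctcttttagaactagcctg
Ccl3: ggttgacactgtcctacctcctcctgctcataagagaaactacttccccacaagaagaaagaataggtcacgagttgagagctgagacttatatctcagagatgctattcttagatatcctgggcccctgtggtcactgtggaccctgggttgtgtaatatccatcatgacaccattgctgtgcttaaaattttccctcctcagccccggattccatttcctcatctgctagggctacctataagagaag
The Ccl8 window held TATAAA 32 to 27 bases before the start. In the Ccl9 window those letters lay at 92 to 87 bases before the start, overlapped by the reverse-strand match at 94 to 89, and a further reverse-strand match lay at 224 to 219. A kappa-B match lay 35 to 26 bases before the Ccl9 start. Of all 32851 promoter windows of this length, 12.4% held TATAAA and 3.9% the kappa-B consensus. The STAT palindromes TTCNNNNGAA (5.85% of windows) and TTCNNNGAA (7.02%) were in none of the 4 windows.

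Ccl8, the Ccr8 ligand, rose most of the 10. Its level was 0.693 RPM at the lowest, 1.10 at the median and 3.37 at the highest in Sham, and 0.672, 0.987 and 2.88 in PM. In Sham-OVA it was 1107, 515, 305, 745 and 488 RPM in replicates 1 to 5, and in PM-OVA 353, 309, 291 and 442 RPM in replicates 1 to 4. Every OVA library was thus far above every saline library. The log2 difference was 8.32 ± 0.32 (SE, adjusted p = 2.12e-10, limma) in Sham offspring and 7.69 ± 0.27 (adjusted p = 9.05e-09) in PM offspring.

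The eotaxins followed. Ccl11 was at 0.868, 2.28 and 3.14 RPM (lowest, median, highest) in Sham and at 1.41, 1.99 and 3.16 in PM. It reached 90.7, 79.4, 63.7, 116 and 83.8 RPM in Sham-OVA replicates 1 to 5 and 61.2, 77.7, 87.8 and 94.1 RPM in PM-OVA replicates 1 to 4. Neither set of OVA libraries overlapped its controls, and the OVA groups overlapped each other. The Ccl11 log2 difference was 4.98 ± 0.24 (SE, adjusted p = 1.66e-09, limma) in Sham offspring and 4.94 ± 0.22 (adjusted p = 2.04e-08) in PM offspring.

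Ccl24 was at 0.653, 1.27 and 1.98 RPM (lowest, median, highest) in Sham and at 0.922, 1.72 and 3.36 in PM. It was 102, 125, 71.1, 141 and 61.6 RPM in Sham-OVA replicates 1 to 5, and 33.8, 52.4, 47.3 and 107 RPM in PM-OVA replicates 1 to 4. The challenged and saline values did not overlap, and 3 of 4 PM-OVA libraries lay below every Sham-OVA library. The Ccl24 log2 difference was 5.73 ± 0.25 (SE, adjusted p = 7.7e-10, limma) in Sham offspring and 4.70 ± 0.33 (adjusted p = 1.01e-06) in PM offspring. Per kb of exon, the Ccl24 to Ccl11 ratio had a median of 0.939 in Sham-OVA (0.614 to 1.31) and 0.512 in PM-OVA (0.45 to 0.955), ranges that overlap.

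Ccl9 and Ccl6 are neighbouring Ccr1 ligands that were already well expressed in saline lungs. Ccl9 was at 16.8, 25.3 and 39.6 RPM (lowest, median, highest) in Sham and at 22.8, 29.7 and 37.7 in PM. With OVA it was 419, 393, 177, 583 and 313 RPM in Sham-OVA replicates 1 to 5 and 264, 340, 268 and 287 RPM in PM-OVA replicates 1 to 4. No OVA library overlapped the saline libraries, and the log2 difference of Ccl9 was 3.74 ± 0.27 (SE, adjusted p = 5.69e-08, limma) in Sham offspring and 3.28 ± 0.14 (adjusted p = 1.54e-08) in PM offspring.

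Ccl6 was at 76.3, 178 and 340 RPM (lowest, median, highest) in Sham and at 166, 213 and 220 in PM. It was 693, 557, 124, 964 and 502 RPM in Sham-OVA replicates 1 to 5 and 578, 594, 271 and 233 RPM in PM-OVA replicates 1 to 4. The PM-OVA libraries all lay above PM, while Sham-OVA replicate 3, the shallowest library, lay within the Sham range. Its log2 difference was 1.47 ± 0.43 (SE, adjusted p = 0.00757, limma) in Sham offspring and 0.93 ± 0.25 (adjusted p = 0.00529) in PM offspring, smaller than that of Ccl9. The Ccl9 to Ccl6 ratio per kb of exon had a median of 0.0837 in Sham (0.0581 to 0.132) and 0.368 in Sham-OVA (0.356 to 0.844). In PM it was 0.0815 (0.0711 to 0.134) and in PM-OVA 0.46 (0.269 to 0.725), and in both cohorts the lowest ratio with OVA exceeded the highest without.

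The monocyte chemokines Ccl2 and Ccl7 were scarce in saline lungs and rose in both cohorts. Ccl2 was at 0.289, 0.557 and 1.34 RPM (lowest, median, highest) in Sham and at 0.757, 0.972 and 1.58 in PM. It reached 21.2, 7.97, 6.21, 14.8 and 5.92 RPM in Sham-OVA replicates 1 to 5 and 8.20, 5.02, 3.05 and 9.08 RPM in PM-OVA replicates 1 to 4. All OVA libraries lay above their controls, with log2 differences of 3.28 ± 0.32 (SE, adjusted p = 9.1e-07, limma) and 2.05 ± 0.27 (adjusted p = 0.000101).

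Ccl7 was at 0.0577, 0.463 and 1.28 RPM (lowest, median, highest) in Sham and at 0.395, 0.614 and 1.17 in PM. Its OVA values were 25.8, 12.0, 2.80, 21.4 and 9.13 RPM in Sham-OVA replicates 1 to 5 and 6.52, 4.56, 3.32 and 12.0 RPM in PM-OVA replicates 1 to 4. As for Ccl2, the lowest challenged library exceeded the highest saline one. The log2 difference of Ccl7 was 3.63 ± 0.44 (SE, adjusted p = 5.64e-06, limma) in Sham offspring and 2.43 ± 0.30 (adjusted p = 5.94e-05) in PM offspring.

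Among Ccl3, Ccl4 and Ccl5, only Ccl4 passed the test in each cohort. Ccl4 was at 0.462, 1.11 and 1.52 RPM (lowest, median, highest) in Sham and at 0.611, 0.998 and 2.28 in PM. It was 9.87, 6.02, 5.90, 21.8 and 9.64 RPM in Sham-OVA replicates 1 to 5, and 1.75, 3.25, 4.12 and 7.26 RPM in PM-OVA replicates 1 to 4. All Sham-OVA libraries lay above Sham, whereas PM-OVA replicate 1 lay within the PM range. The log2 difference was 2.66 ± 0.31 (SE, adjusted p = 4.2e-06, limma) in Sham offspring and 1.40 ± 0.33 (adjusted p = 0.00295) in PM offspring. Without the 3 shallowest libraries the PM value of Ccl4 was 0.87 with an adjusted p of 0.0508.

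Ccl3 was at 1.15, 1.76 and 4.63 RPM (lowest, median, highest) in Sham and at 1.25, 1.98 and 4.00 in PM. It was 5.14, 4.36, 0, 21.1 and 3.29 RPM in Sham-OVA replicates 1 to 5, and 3.56, 3.32, 0.531 and 1.27 RPM in PM-OVA replicates 1 to 4. The Sham-OVA libraries lay below, within and above the Sham range, and the 0 in replicate 3 allows up to 0.932 RPM (3 reads, counting error only). Its log2 difference did not pass the test in Sham offspring (0.64 ± 0.64 SE, adjusted p = 0.393, limma) or PM offspring (-0.26 ± 0.37, adjusted p = 0.552). Sham-OVA replicate 3 decided the first value, which was 1.39 with an adjusted p of 0.00429 without it, and 0.03 (adjusted p = 0.959) without replicate 4. DESeq2 and edgeR on the recovered reads gave Ccl3 adjusted p-values of 0.00207 and 0.00389 in Sham offspring.

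Ccl5, second of the 10 in saline lungs when levels are taken per length, was at 19.0, 26.8 and 51.7 RPM (lowest, median, highest) in Sham and at 19.2, 24.8 and 34.8 in PM. In Sham-OVA it was 34.0, 28.5, 14.0, 45.9 and 53.3 RPM in replicates 1 to 5, and in PM-OVA 33.5, 31.5, 29.1 and 19.8 RPM in replicates 1 to 4. OVA and saline libraries overlapped in both cohorts. The log2 difference was 0.22 (95% interval -0.43 to 0.86, adjusted p = 0.538, limma) in Sham offspring and 0.17 (-0.23 to 0.58, adjusted p = 0.434) in PM offspring. The call depended on the scaling. Median-of-ratios scaling gave Ccl5 log2 differences of 0.58 (adjusted p = 0.0362) and 0.53 (adjusted p = 0.0121), while removal of the trend with exon length and GC content gave -0.48 (adjusted p = 0.193) and -0.53 (adjusted p = 0.0502). Without Sham-OVA replicate 3 the Sham value was 0.51 (adjusted p = 0.0492).

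**Figure D2:**
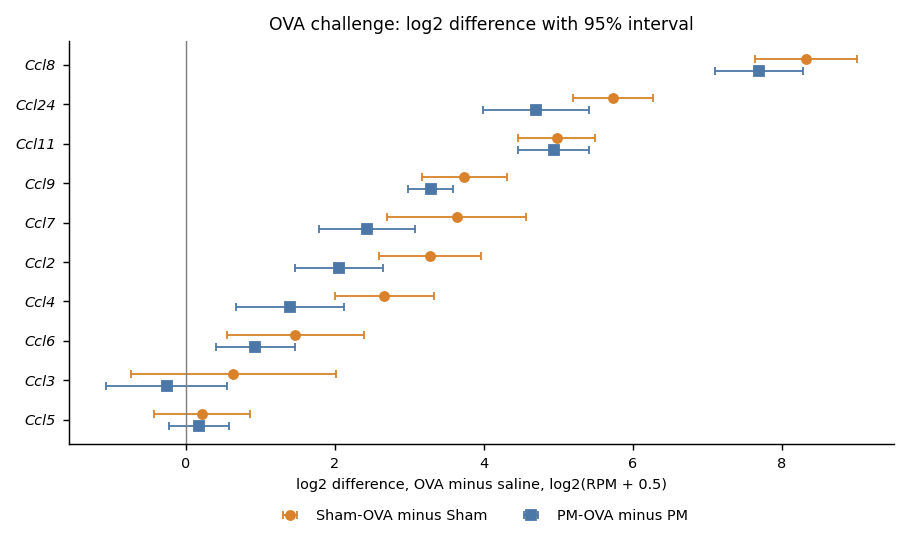
Log2 difference of each chemokine between OVA and saline libraries on log2(RPM + 0.5), with its 95% interval from limma; circles are Sham offspring and squares PM offspring. Ccl8 lies farthest right at 8.32 and 7.69, and the intervals of Ccl3 and Ccl5 include 0 in both cohorts.

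Compared per length (RPM per kb of merged exon), the order of the chemokines changed with OVA. Whether the authors' counts cover exons alone is not given in the sources used here, so these levels are approximate. In Sham lungs Ccl6 led with 103 ± 45.1 (SD, n = 7), followed by Ccl5 with 30.0 ± 11.3 and Ccl9 with 8.82 ± 2.62. The other 7 had means from 0.539 (Ccl2) to 2.99 (Ccl3), and neighbours in that order differed by less than the sum of their SDs. In Sham-OVA lungs Ccl8 led with 1237 ± 603 (SD, n = 5), ahead of Ccl6 with 316 ± 171 and Ccl9 with 124 ± 48.8. Ccl11 with 80.1 ± 17.7 and Ccl24 with 77.2 ± 26.1 differed by less than either SD, and Ccl5 followed with 36.6 ± 16.0. PM-OVA lungs had the same first 6 in the same order, led by Ccl8 with 683 ± 132 (SD, n = 4).

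As a share of the summed per-length level of all 10, Ccl8 took 64.1 ± 6.62% in Sham-OVA, 57.5 ± 6.60% in PM-OVA, 2.00 ± 1.24% in Sham and 1.60 ± 1.12% in PM (SD). Its lowest share in an OVA library was 49.9% and its highest in a saline library 4.17%. Ccl6 went from 65.4 ± 7.61% in Sham to 15.7 ± 5.22% in Sham-OVA, and Ccl5 from 20.3 ± 6.38% to 2.02 ± 0.908%. Ccl9 took a similar share in all 4 groups, with means from 6.02% to 8.11%. The sum itself was 1924 ± 833 RPM per kb in Sham-OVA against 153 ± 57.3 in Sham, and 1184 ± 149 in PM-OVA against 161 ± 14.3 in PM. The range of Sham-OVA, from 870 to 2962, held all of PM-OVA, from 970 to 1315.

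**Figure D3:**
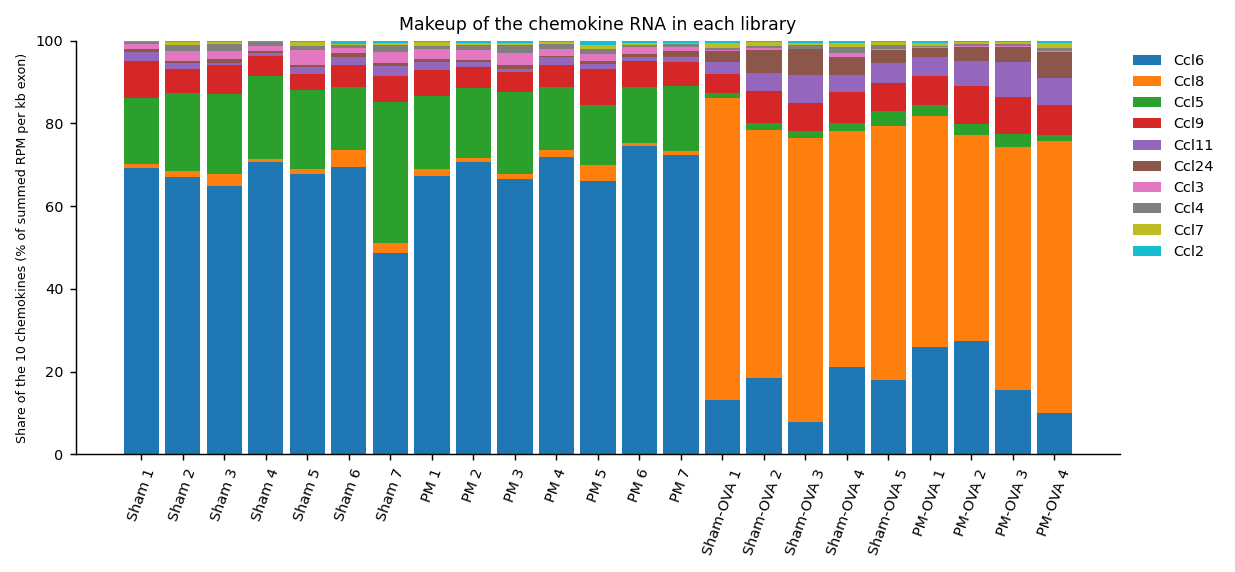
Share of each chemokine in the summed RPM per kb of exon of all 10, in percent, for each of the 23 libraries on the x axis. Ccl6 is the largest block in all 14 saline libraries and Ccl8 in all 9 OVA libraries.

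Maternal exposure without OVA moved no chemokine past the threshold, as for 0% of all genes tested (0 of 16795, limma). In PM against Sham the 10 log2 differences lay between -0.15 (Ccl5) and 0.52 (Ccl2). An unadjusted p under 0.05 was seen for 1 of 10, against 4.35% of all genes tested (1.85% as lower). This was Ccl2, which was 0.52 ± 0.18 higher in PM (SE, limma, adjusted p = 0.898), with 2 of 7 PM libraries above every Sham library. Without Sham replicate 1 the Ccl2 value was 0.44 (limma, adjusted p = 0.867), the lowest with any single library left out. DESeq2 and edgeR also called 0 of 10, and 0 of all genes tested.

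Among challenged offspring all 10 chemokines had a lower mean log2 level in PM-OVA than in Sham-OVA, and none passed the test (0% of all genes tested, limma). The differences ran from -1.26 (Ccl4) to -0.10 (Ccl11), with a median of -0.72, where the median gene was at 0.01. Of the 10 only Ccl4 had an unadjusted p under 0.05, as had 1.86% of all genes tested in either direction and 0.673% as lower, with a difference of -1.26 (95% interval -2.31 to -0.20, limma, adjusted p = 1). Its PM-OVA libraries lay below every Sham-OVA library in 3 of 4 cases. Ccl24 differed by -0.79 (-1.59 to 0.01), Ccl8 by -0.74 (-1.50 to 0.02) and Ccl11 by -0.10 (-0.56 to 0.35). All 10 chemokines had overlapping groups. The share of all genes with groups apart was not computed for this comparison, and nothing is read from that count. For Ccl11 the sign turned without Sham-OVA replicate 4 (0.01) or PM-OVA replicate 1 (0.02).

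The response to OVA was also compared between cohorts by the interaction, the PM response minus the Sham response, which shares the OVA libraries with the comparison above. All 10 estimates were below 0, with a median of -0.76, and none passed at an adjusted p under 0.05 (0% of all genes tested, limma). Those of Ccl11 and Ccl5, at -0.04 each, turned sign when some single libraries were left out. Of all genes tested 5.08% had an unadjusted p under 0.05, and 1.56% had one with an estimate below 0. Among the chemokines there were 4 of 10, all below 0: Ccl4 (-1.27 ± 0.47 SE), Ccl2 (-1.23 ± 0.44), Ccl7 (-1.20 ± 0.57) and Ccl24 (-1.04 ± 0.42), with adjusted p-values of 0.689, 0.673, 0.953 and 0.826. The Ccl11 interaction had an interval from -0.72 to 0.64. The count differed between alternatives. Without the 3 shallowest libraries, which leaves 2 PM-OVA libraries, 3 of 10 passed, namely Ccl4 (-1.95, adjusted p = 0.0313), Ccl7 (-1.77, 0.035) and Ccl24 (-1.52, 0.0471), where 0.649% of all genes passed as lower and 4.29% in either direction. Array weights gave 5 of 10, Ccl2, Ccl3, Ccl6, Ccl7 and Ccl9, but with them 23.6% of all genes passed as lower and the median gene was at -0.32, and nothing is read from this count. DESeq2 and edgeR gave 0 of 10, where they called 2 and 0 of all genes tested.

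**Figure D4:**
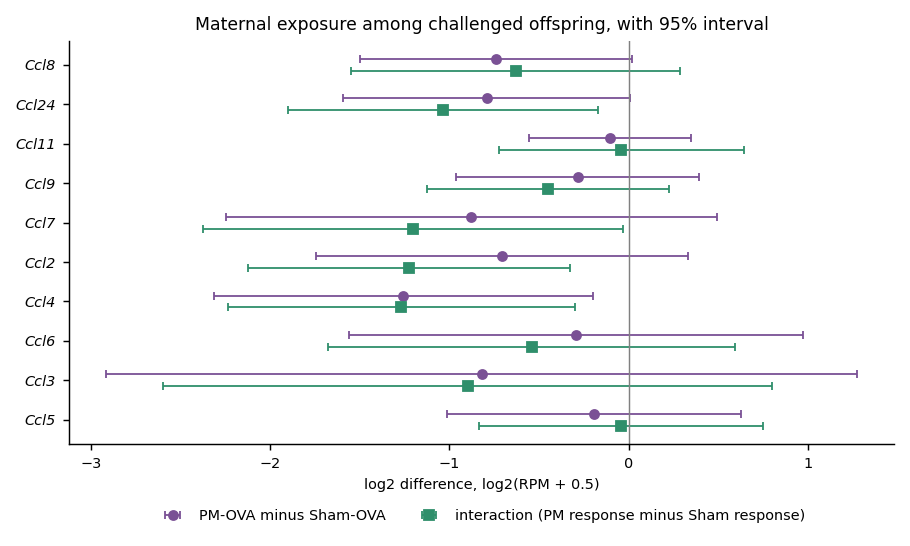
Log2 difference between PM-OVA and Sham-OVA (circles) and interaction (squares) for each chemokine on log2(RPM + 0.5), with 95% intervals from limma. All points lie left of 0, and the circle's interval leaves out 0 for Ccl4.

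Some challenged libraries deviated in the same direction for every chemokine. Sham-OVA replicates 1 and 4 were above the group mean for 10 of 10 chemokines, and replicate 3 for 0 of 10, with a median deviation of -0.95 (log2). Of the 9 OVA libraries, Sham-OVA replicate 4 was highest for 6 chemokines and Sham-OVA replicate 3 lowest for 5. In PM-OVA between 3 and 6 of 10 lay above the group mean in each library. Ccl11 was the least variable among the OVA libraries (SD 0.28, log2), and Ccl3 the most (SD 1.56). Sham-OVA replicate 3 was also the shallowest library. Among the Sham-OVA libraries the summed markers of eosinophils, neutrophils, and NK and cytotoxic T cells were highest in replicate 4 (106, 725 and 133 RPM) and lowest in replicate 3 (28.0, 117 and 31.1 RPM). The other lists differed. Alveolar macrophage markers were highest in replicate 3 (716 RPM) and lowest in replicate 1 (556). Those of interstitial macrophages were highest in replicate 1 (4770) and lowest in replicate 5 (3093). Monocyte markers were highest in replicate 4 (1369) and lowest in replicate 1 (1097), and fibroblast markers highest in replicate 1 (1170) and lowest in replicate 3 (581). The part of depth and of these markers in the pattern was not tested.

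**Figure D5:**
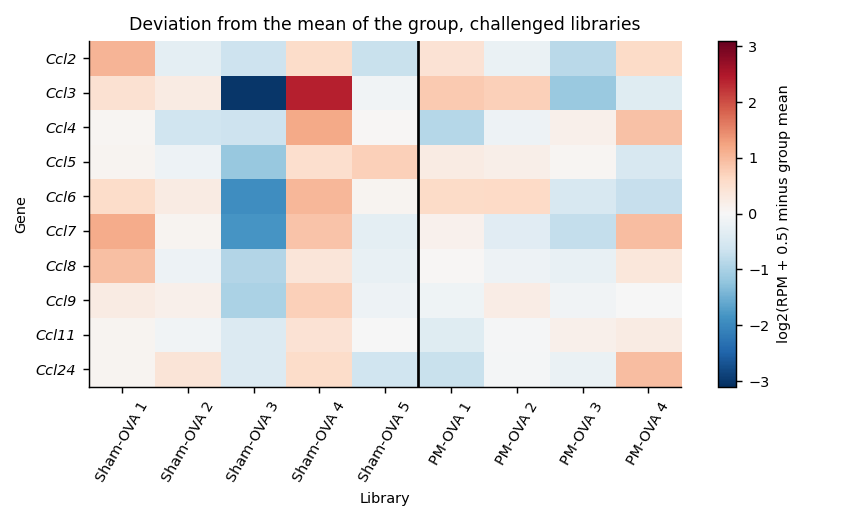
Deviation of each chemokine (rows) from its group mean in log2(RPM + 0.5) for the 9 challenged libraries (columns); red is above and blue below the mean, and the black line parts Sham-OVA from PM-OVA. Sham-OVA replicate 3 is below the mean throughout and replicates 1 and 4 are above it throughout.

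The receptors had a smaller median difference than the chemokines. Of 10 CC chemokine receptors, 3 rose, 3 fell and 4 did not pass the test in Sham offspring, and 4 rose, 2 fell and 4 did not pass in PM offspring, with median log2 differences of 0.20 and 0.09. Over all genes tested 47.5% fell in Sham offspring and 45.2% in PM offspring, and 20.6% and 20.1% rose. Ccr3, the eotaxin receptor, rose from a median of 0.463 RPM in Sham to 6.70 in Sham-OVA (log2 difference 3.03, adjusted p = 1.35e-06, limma) and from 0.256 in PM to 5.16 in PM-OVA (2.71, adjusted p = 2.16e-05). Ccr2 passed in PM offspring (0.55, adjusted p = 0.0175), but not without PM-OVA replicate 2 (0.44, adjusted p = 0.0616), with all 4 groups in one fit (adjusted p = 0.0639), with the replicate block (0.0856) or with array weights (0.275). It did not pass in Sham offspring (0.43, adjusted p = 0.171), where it did without Sham-OVA replicate 3 (0.71, adjusted p = 0.00295). Ccr1 did not pass in either cohort (0.65 and 0.26), but did in Sham offspring without that library (1.16, adjusted p = 0.00173). Ccr8, which binds Ccl8, was low, with Sham and Sham-OVA medians of 1.45 and 0.752 RPM, a fall of -0.95 (adjusted p = 0.0321). This was lost without any of 4 single libraries (Sham replicate 5 or 6, or Sham-OVA replicate 3 or 5, adjusted p = 0.0503 to 0.104). It was also lost with DESeq2 (adjusted p = 0.272), edgeR (0.404), quantile normalisation (0.239) and median-of-ratios scaling (0.0656). The same held with array weights (0.136), the replicate block (0.0993) and no filter (0.0653). In PM offspring Ccr8 did not pass (-1.05), but did with all 4 groups in one fit (adjusted p = 0.0406) and under some other alternatives. Of the receptors that bind none of the 10, Ccr10 rose most, from a median of 0.452 RPM in Sham to 45.8 in Sham-OVA (5.65, adjusted p = 3.6e-09). Ccr6 was at 0 in all 5 Sham-OVA libraries against 0.984 to 3.12 RPM in Sham. In PM-OVA it was at 0 in 3 of 4 libraries and reached 1.68 RPM, within the PM range of 1.29 to 3.62.

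Atypical receptors take up chemokines without signalling through G proteins. Of 5 tested, 4 fell in each cohort, and 1 rose, in Sham offspring, with medians of -1.80 and -2.03 (log2). Of all genes tested 47.5% and 45.2% fell and 20.6% and 20.1% rose in Sham and PM offspring, and the median gene was at -0.48 and -0.43. Ackr2, which scavenges inflammatory CC chemokines, fell from a median of 120 RPM in Sham to 26.1 in Sham-OVA (-2.56, adjusted p = 7.43e-06, limma) and from 134 in PM to 26.1 in PM-OVA (-2.42, adjusted p = 0.00298). In PM offspring its value was -3.01 when PM-OVA replicate 1 was left out and -1.84 when replicate 3 was. Of 11 other CC chemokines, 7 were tested, and in each cohort 5 rose, 1 fell and 1 did not pass the test. Ccl12, which lies between Ccl11 and Ccl8, rose by 3.41 and 3.09 (adjusted p = 2.18e-08 and 5.47e-05). Ccl20 rose by 3.56 and 3.05, and Ccl22, a Ccr4 ligand, by 2.31 and 1.96. Ccl19, Ccl21a and Ccl27a were at 0 in all libraries. These genes have near-identical copies, which can lose reads in counting.

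Of 9 type 2 cytokine signalling genes, 5 rose, 1 fell and 3 did not pass in Sham offspring, and 6, 1 and 2 in PM offspring. The shares of all genes tested that rose were 20.6% and 20.1%, and 47.5% and 45.2% fell. Il5ra, the interleukin-5 receptor of eosinophils, rose by 3.18 and 2.47, and Il13, which was read in none of the Sham libraries, had Sham-OVA and PM-OVA medians of 2.15 and 0.857 RPM. Of 10 type 1 and NF-kB signalling genes, 9 were tested, and 2 rose, 2 fell and 5 did not pass in Sham offspring, against 2, 3 and 4 in PM offspring. These counts were not stable. With DESeq2 or edgeR none of the list fell in either cohort and 5 rose in Sham offspring. In Sham offspring 1 fell whichever single Sham library was left out. In PM offspring 1 fell without PM-OVA replicate 3 or 4, and 1 rose without PM replicate 2, 3, 4, 6 or 7 or PM-OVA replicate 2 or 3.

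Markers of cells that make or follow these chemokines moved with OVA as well. For the counts below, the shares over all genes tested were 20.6% rising and 47.5% falling in Sham offspring. In PM offspring they were 20.1% and 45.2%. Of 7 eosinophil markers 6 were tested, and in each cohort 5 rose and 1, Siglecf, fell. Of these, Ccr3 and Il5ra are also in the receptor and type 2 lists. The sum of all 7 was 28.0 to 106 RPM in Sham-OVA against 4.27 to 17.9 in Sham. It was 43.0 to 64.1 in PM-OVA against 5.40 to 22.3 in PM. Alox15 alone had means of 1.61, 4.66, 35.8 and 27.4 RPM in Sham, PM, Sham-OVA and PM-OVA. Epx and Ear6 were at 0 in all saline libraries. Of 9 interstitial macrophage markers, 9 rose in Sham and 8 in PM offspring, with sums of 811 to 1429, 941 to 1556, 3093 to 4770 and 3028 to 3558 RPM for Sham, PM, Sham-OVA and PM-OVA, the order in which the sums of the other lists are given. Ccl6 and Ccl9 moved the same way as most of both lists, as did all 8 chemokines that passed. Of 8 NK cell and cytotoxic T cell markers, 5 fell in Sham and 6 in PM offspring and none rose, with sums of 78.7 to 222, 104 to 188, 31.1 to 133 and 48.1 to 112 RPM. These cells are a known source of Ccl5. Among 8 alveolar macrophage markers 5 fell in each cohort (Marco, Pparg, Plet1, Fabp1 and Siglecf) and 2 rose, Car4 and Mrc1, the latter also in the interstitial list. The sums of all 8 include these risers and were of 246 to 428, 219 to 417, 556 to 716 and 374 to 872 RPM in the 4 groups. Car4, which the paper lists among endothelial signature genes, alone had means of 208, 198, 419 and 470 RPM. The sums therefore mostly follow Car4. Of 7 monocyte markers 3 rose in each cohort, and 2 fell in Sham and 1 in PM offspring, with sums of 1275 to 2136, 830 to 2003, 1097 to 1369 and 1147 to 1706 RPM. Ace alone had means of 1503, 1468, 962 and 1148 RPM in the 4 groups, so these sums mostly follow Ace. Of 6 neutrophil markers 1 rose in Sham and 2 in PM offspring and 2 fell in each, with sums of 63.4 to 669, 56.0 to 427, 117 to 725 and 220 to 255 RPM. Of 6 fibroblast markers 3 fell and none rose, a share near that of all genes, with sums of 1195 to 1399, 1222 to 2016, 581 to 1170 and 563 to 1380 RPM. The part of these shifts in the chemokine values was not tested.

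Gene length moved with the OVA comparisons too. The median log2 difference went from 0.19 for genes up to 1000 bases of exon to -1.05 for those above 8000 bases in Sham offspring, and from 0.19 to -0.99 in PM offspring. The chemokines have 511 (Ccl8) to 3045 (Ccl9) bases of exon, against a median of 4064 over the genes tested. With the trend with length and GC content removed, 8 of 10 passed as higher in each cohort. Of 16535 genes, 3111 did so in Sham and 2997 in PM offspring.

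Nearest profiles were ranked by the root mean square difference between log2 profiles over the 23 libraries, each centred on its own mean. Ccl11 was nearest to Chil3, a chitinase-like protein of macrophages (0.43), and then to Eaf2 (0.46), which was also nearest to Ccl24 (0.54). Ccl6 was nearest to the Fc receptor gene Fcgr3 (0.28), followed by Cd48 (0.35) and Adgre1, the F4/80 macrophage antigen (0.36). For Ccl9 they were Slc5a1 (0.29), Pdcd1lg2 (0.33) and the complement gene C1qc (0.37). Ccl8 had Jchain, the immunoglobulin joining chain (0.60), Rnase2a (0.63) and Slpi (0.64), and Ccl7 had Cd209d (0.45), Rrm2 (0.49) and Ccl2 (0.50). Ccl2 was nearest to Ptgdr (0.42) and the cell cycle genes Nusap1 and Ccna2 (0.43 each). Ccl4 was nearest to Vav1 (0.46), Ccl3 to Gm15987 (0.49) and Ccl5 to Mrps24 (0.26), the last 2 distances set against SDs of 1.01 and 0.46 for the chemokines themselves. Ccl7 and Ccl2 were the only pair of the 10 named in this way.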

How the data were processed

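RNA-Seq of 23 lungs was analysed, grouped by the maternal exposure and challenge in the labels. Upstream, the authors used Trimmomatic for trimming, Bowtie2 for alignment to GRCm38 (mm10), without splitting reads over introns, and SeqMonk for quantification. The deposited values are RPM by the authors, although the table is named after RPKM, for which the tests were planned: 100% of the values in each library were whole multiples of 1 read (tolerance 0.1), so reads were recovered. Values were tested as log2(RPM + 0.5), which understates changes of low genes, with limma 3.58.1 (trend, Benjamini-Hochberg) in R 4.3.3, on genes that reached 0.5 RPM in 4 or more libraries. Each comparison was fitted on its 2 groups, and the interaction on all 4. Coordinates and exon lengths came from GENCODE. The smallest step of a value is set by depth, and the limits given for a value of 0 cover counting error only. Standard errors and 95% intervals come from the spread between libraries.

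The 10 chemokines and all lists were chosen with earlier results of these data known. All 10 were named, with list genes of large change, the receptors of members and the 3 nearest profiles; 1 receptor is not reported here. Alternatives were pseudocounts of 0.1 and 1, other filters, scalings, thresholds and fits, array weights, a replicate block, leaving out each library, and DESeq2 1.42.0 and edgeR 4.0.16 on recovered reads. Removing the length and GC trend and leaving out the 3 shallowest libraries were chosen after seeing the data. Tested on simulated data, limma recovered 100 of 100 genes changed 4-fold in every comparison, with 2 to 15 false calls. Recovery at the spread and levels of the chemokines in the real libraries was not tested. In Sham-OVA their SD ran from 0.31 (Ccl11) to 1.95 (Ccl3) on the log2 scale. Figures were drawn with matplotlib 3.10.9.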

Additional observations from a re-analysis of the deposited data

Results flagged for a closer look

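Ccl11 in Sham replicate 3 stood apart from its group, at 0.868 RPM (15 reads) where the other 6 lay between 2.09 and 3.14, by Dixon's test on the log2 scale. It was 1 of 40 sets of libraries examined, and chance marks about 1 in 20.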

How the results depend on the processing

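The counts of chemokines past an adjusted p under 0.05 were 8 to 10 in Sham and 7 to 9 in PM offspring under the alternatives run. The counts over all 16795 genes moved too. With DESeq2 5362 genes were higher in Sham offspring (10 chemokines) and 5323 in PM offspring (9 chemokines). Without the 3 shallowest libraries they were 4221 (10 chemokines) and 3311 (7 chemokines). DEG counts moved more, but the share of all genes at that threshold is not given for the alternatives, and nothing is read from them. In Sham-OVA against Sham they were 3 with no filter, 8 with array weights and 8 with DESeq2, and in PM-OVA against PM 6 at an adjusted p under 0.001 and 7 with DESeq2. With each library left out in turn they were 4 to 7 and 3 to 4. Replicate numbers follow the sample titles and mostly differ from the library names in the OVA groups, so they cannot show whether libraries were paired. Between OVA and saline libraries of the same number, correlations of deviations ran from -0.10 to 0.12. Between PM-OVA and Sham-OVA they were 0.60, 0.22, 0.62 and -0.31 for replicates 1 to 4. With the replicate block 8 and 8 chemokines passed at 0.05, where 2908 and 2288 of 16795 genes were higher, and 0 and 0 were DEGs. In the interaction 5 passed with array weights, where 27.5% of all genes did, and 3 without the 3 shallowest libraries (4.29%). The cause was not tested. Signs turned for values near 0. Ccl3 in PM-OVA against PM was 0.15 with quantile normalisation, 0.20 with DESeq2, 0.22 with edgeR, 0.51 without the 3 shallowest libraries, and -0.53 to 0.13 with single libraries left out. Ccl5 was -0.48 and -0.53 with the length and GC trend removed, and ran from -0.235 to 0.00238 in PM against Sham with single libraries left out. The Ccl11 interaction was 0.0196 with array weights, 0.0675 with DESeq2, 0.0812 with edgeR and 0.0122 with the trend removed. With single libraries left out the interaction ran from -0.144 to 0.125 for Ccl11 and from -0.336 to 0.137 for Ccl5, and the PM-OVA against Sham-OVA value of Ccl11 from -0.207 to 0.0197. In PM-OVA against PM, Ccr1 was -0.24 with array weights and Ccr8 0.0416 without the 3 shallowest libraries. Over all genes, 3453 were higher and 7978 lower in Sham-OVA, and 3379 and 7589 in PM-OVA, against 5484 and 5812, and 5288 and 5445, with quantile normalisation, which moved the median gene to -0.05 and -0.02. A count of 0 in the shallowest library allows up to 0.932 RPM.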
